A study of Mus musculus with 12 samples.

Results

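The 46 genes described here mark macrophages and other myeloid cells, and were chosen by name from a gene expression table of 34745 genes. They are found in 47 of its entries, since Itgam is listed under 2 gene identifiers. The libraries were made from MLE-12 cells, a mouse lung line with alveolar type II (AT II) epithelial features that was derived from a tumour driven by a viral large T antigen under a surfactant protein C promoter. All 12 libraries came from injured cells harvested at 24 h, with 3 libraries in each of 4 groups. The LPS group received 100 ng/mL lipopolysaccharide, a bacterial cell wall component, in 21% oxygen. The LPS + M2-Exo group received the same and 10 µg/mL M2-Exo, which are exosomes shed by MH-S cells, a mouse alveolar macrophage line that had been turned to the M2 state with interleukin 4. The Hyp group was kept in 85% oxygen (hyperoxia), and the Hyp + M2-Exo group was kept in the same oxygen with 10 µg/mL M2-Exo. No uninjured library was analysed here. A gene that was lower in Hyp than in LPS may therefore have moved in either injury, and the agent, the oxygen level and whatever was handled together cannot be told apart.

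Macrophages are tissue phagocytes. Their identity rests on the transcription factor PU.1, encoded by Spi1, and their survival on the receptor for colony-stimulating factor 1, encoded by Csf1r, while alveolar macrophages also need the granulocyte-macrophage colony-stimulating factor received by the products of Csf2ra and Csf2rb. Fc receptors and integrins bind coated particles, scavenger receptors bind modified lipoproteins and bacteria, the NADPH oxidase makes superoxide in the phagosome, and lysozyme and cathepsins digest what was taken up. In mice, interleukin 4 raises Mrc1, Retnla and Chil3, which are common marks of the M2 state. Several of the members are not particular to macrophages, since Cyba, Cd36 and Csf2ra are known from epithelial and other cells as well.

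The libraries held between 16021833 and 24074616 counts assigned to genes. Of the epithelial markers, Nkx2-1, the lung epithelial transcription factor, stood at 171, 172 and 174 CPM (counts scaled to library size) in LPS and 41.7, 37.8 and 38.8 CPM in Hyp. Sftpc, surfactant protein C, stood at 21.5, 23.3 and 22.2 CPM and 11.1, 10.5 and 12.1 CPM. Sftpa1 and Sftpd were listed at 0 in 11 of 12 libraries each, and Epcam stayed at or below 1.17 CPM, so the AT II label was borne out by some of its defining markers and not by others. Markers of T cells, B cells, neutrophils, mast cells and erythroid cells summed to at most 2.14 CPM per list and library, with Cd3d, Cd8a, S100a8, S100a9, Ly6g and Hbb-bs at 0 throughout.

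Transcripts of the macrophage genes were present in every library, including the 6 that received no M2-Exo. Their summed level was 1320 ± 84.5 CPM in LPS, 1061 ± 34.95 CPM in LPS + M2-Exo, 314 ± 12.3 CPM in Hyp and 288 ± 54.1 CPM in Hyp + M2-Exo (SD, n = 3 libraries per group). The mean sum in Hyp was 4.199 times lower than in LPS, and the libraries of the 2 groups did not overlap. The 12 lung epithelial markers summed to between 995 and 1142 CPM over the 12 libraries, with overlap between LPS and Hyp. Much of this sum was Krt19, a keratin of simple epithelia, which was at 500.0, 479 and 521 CPM in LPS and 744, 733 and 741 CPM in Hyp. Of the 8 epithelial markers tested in Hyp against LPS, 6 were lower and 2 (Krt19 and Sftpb) were higher, with a median of -0.62. Of all genes tested, 37.8% were lower and 38% higher. In bulk RNA, fewer cells of a type and less RNA per cell cannot be told apart, and whether these transcripts came from MLE-12 cells or from other cells was not tested.

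**Figure D1:**
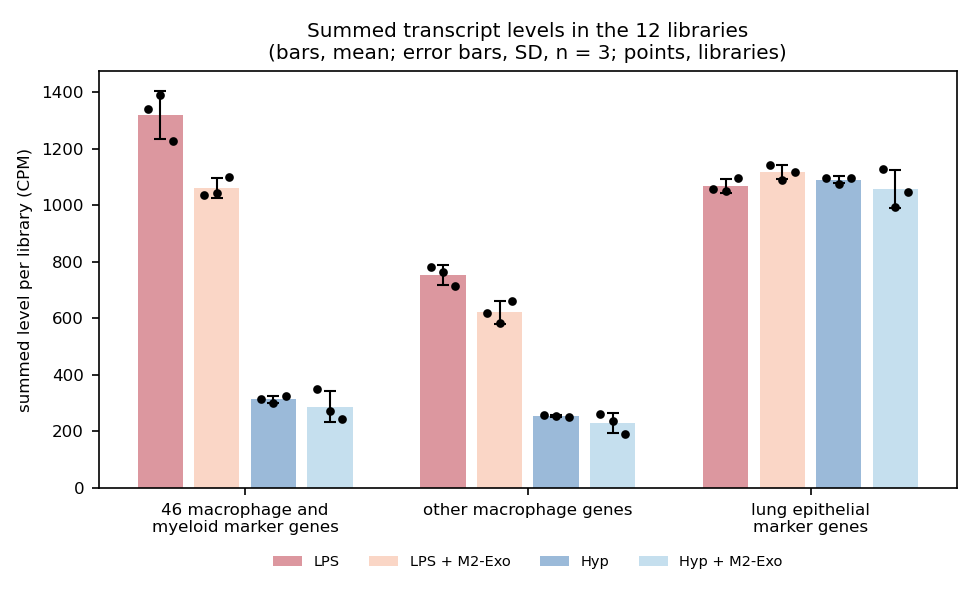
Summed level in CPM (y axis) of the 46 member genes, of 41 other macrophage genes and of 12 lung epithelial marker genes in the 4 groups, with bars for the mean, error bars for the SD and points for the 3 libraries of each group. The macrophage sums are lower in both hyperoxia groups, from 245 to 349 CPM for the members, than in both LPS groups, from 1038 to 1392 CPM, while the epithelial sums overlap, although 6 of the 8 epithelial markers tested were lower in Hyp than in LPS and 2 were higher.

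Levels of different genes were compared only in the deposited FPKM, which are scaled for gene length. In LPS, Cyba (82.04 ± 6.03 FPKM) and Lyz2 (78.7 ± 8.19 FPKM) stood above the rest and overlapped each other (mean ± SD, n = 3). Cd74 followed with 31.5 ± 1.01 FPKM, and then Cybb with 24.3 ± 2.12 FPKM and Adgre1 with 20.8 ± 1.44 FPKM, whose libraries overlapped. The next places, Ctss, Cd68, Csf1r, Fcer1g and Hcls1, lay between 16.1 and 18.6 FPKM, and each overlapped its neighbour. In Hyp, Cyba (51.6 ± 2.01 FPKM) and Lyz2 (21.1 ± 1.11 FPKM) again led, and no longer overlapped. Cd68 (8.15 ± 0.551 FPKM) and Ctss (7.07 ± 0.605 FPKM) then followed with overlapping libraries, while Cybb was not among the first 12. Of the 47 entries, 40 reached 10 counts in at least 1 library and 32 reached 10 counts in all 12. The 7 genes below 10 counts in every library included Retnla, Chil3, Lyz1, H2-Aa, H2-Eb1 and Cd163.

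The members share no single upstream sequence, but many of them are known PU.1 targets, so the core letters of the PU.1 site were looked up in their promoters. RefSeq upstream sequences (GRCm38.p6) were found for 33 of the 46 members. The 250 bases before the gene start held GAGGAA on either strand (on the minus strand, TTCCTC) in 16 of these 33 genes, or 48.5%, against 25.9% of 27025 genes with a window of the same length. Among members that were lower in Hyp than in LPS, 12 of 23 genes held it, and among the 3 that were higher, C1qb and C1qc held it and Itgax did not. These letters are a description of the sequence and not a measured binding site. The windows below belong to genes on which the comparisons turn. Marco (chr1:120505025-120505274, minus strand) and Cybb (chrX:9469325-9469574, minus strand) had the largest falls. Itgam (chr7:128062390-128062639, plus strand) and Itgax (chr7:128129300-128129549, plus strand) are neighbours, and the first Itgam entry went the opposite way to Itgax. The same Itgam window also precedes the second Itgam entry, which held counts only in hyperoxia libraries. Laptm5 (chr4:130913066-130913315, plus strand) and C1qc (chr4:136892915-136893164, minus strand) are a further pair of opposite direction. Capitals mark each match, and the sequences run 5′ to 3′ on the strand of the gene. Windows end at the RefSeq start, which can differ from that of the counted gene model: it lies 18447 bases inside that model for Cybb, 191 for Laptm5, 151 for C1qc and 3 for Itgax. Some windows that are counted above but not printed also end inside the counted model. Among them, the RefSeq start lies 5541 and 5532 bases inside for Fcgr3 and 403 for Ptprc, whose windows held a match. It lies 52905 bases inside for Cd36, whose window held none.
Marco: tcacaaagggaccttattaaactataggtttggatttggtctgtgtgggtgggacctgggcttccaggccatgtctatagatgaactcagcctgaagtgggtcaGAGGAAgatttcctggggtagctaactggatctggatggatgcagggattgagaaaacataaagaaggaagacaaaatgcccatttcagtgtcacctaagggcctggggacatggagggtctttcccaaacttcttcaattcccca
Cybb: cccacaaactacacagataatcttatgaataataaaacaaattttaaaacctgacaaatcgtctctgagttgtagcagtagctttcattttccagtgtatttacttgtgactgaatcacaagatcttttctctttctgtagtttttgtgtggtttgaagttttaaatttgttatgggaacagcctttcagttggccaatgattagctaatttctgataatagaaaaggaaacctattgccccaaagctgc
Itgam: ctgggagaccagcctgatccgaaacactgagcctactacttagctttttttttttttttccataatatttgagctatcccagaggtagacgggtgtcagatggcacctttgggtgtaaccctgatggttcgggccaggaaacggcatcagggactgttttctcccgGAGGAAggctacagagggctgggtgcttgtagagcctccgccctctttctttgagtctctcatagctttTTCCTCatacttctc
Itgax: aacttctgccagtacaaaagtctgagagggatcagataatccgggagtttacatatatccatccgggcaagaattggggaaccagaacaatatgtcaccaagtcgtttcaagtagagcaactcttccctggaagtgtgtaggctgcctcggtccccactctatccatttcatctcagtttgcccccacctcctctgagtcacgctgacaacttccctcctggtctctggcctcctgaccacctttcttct
Laptm5: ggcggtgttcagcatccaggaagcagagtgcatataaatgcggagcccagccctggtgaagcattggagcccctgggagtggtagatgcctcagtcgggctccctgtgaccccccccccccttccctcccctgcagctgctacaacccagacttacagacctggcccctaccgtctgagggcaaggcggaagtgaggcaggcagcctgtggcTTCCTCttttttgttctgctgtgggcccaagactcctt
C1qc: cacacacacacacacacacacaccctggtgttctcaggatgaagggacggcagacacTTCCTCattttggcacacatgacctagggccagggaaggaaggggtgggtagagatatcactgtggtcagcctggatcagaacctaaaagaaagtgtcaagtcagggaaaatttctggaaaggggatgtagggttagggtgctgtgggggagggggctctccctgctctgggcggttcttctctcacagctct

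Hyp was first compared with LPS, both without M2-Exo, to ask how the members differ between the injuries. Of 38 members tested, 34 were lower in Hyp, 3 were higher (Itgax, C1qc and C1qb) and Mrc1 was not called. The background was high, since 75.8% of the 13805 genes tested were called at an adjusted p under 0.05 in edgeR's quasi-likelihood test, of which 38% of genes tested were higher and 37.8% lower. The lower members were 89.5% of those tested, and 30 members were called and at least 2 times lower, against 13.7% of all genes tested. Their median log2 fold change was -1.98, with quartiles at -2.61 and -1.27, while that of all genes was 0.0091. By size, 18 members were at least 4 times lower, 12 were from 2 to 4 times lower, and 4 (Aif1, Cd36, Csf2ra and Cyba) were less than 2 times lower.

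**Figure D2:**
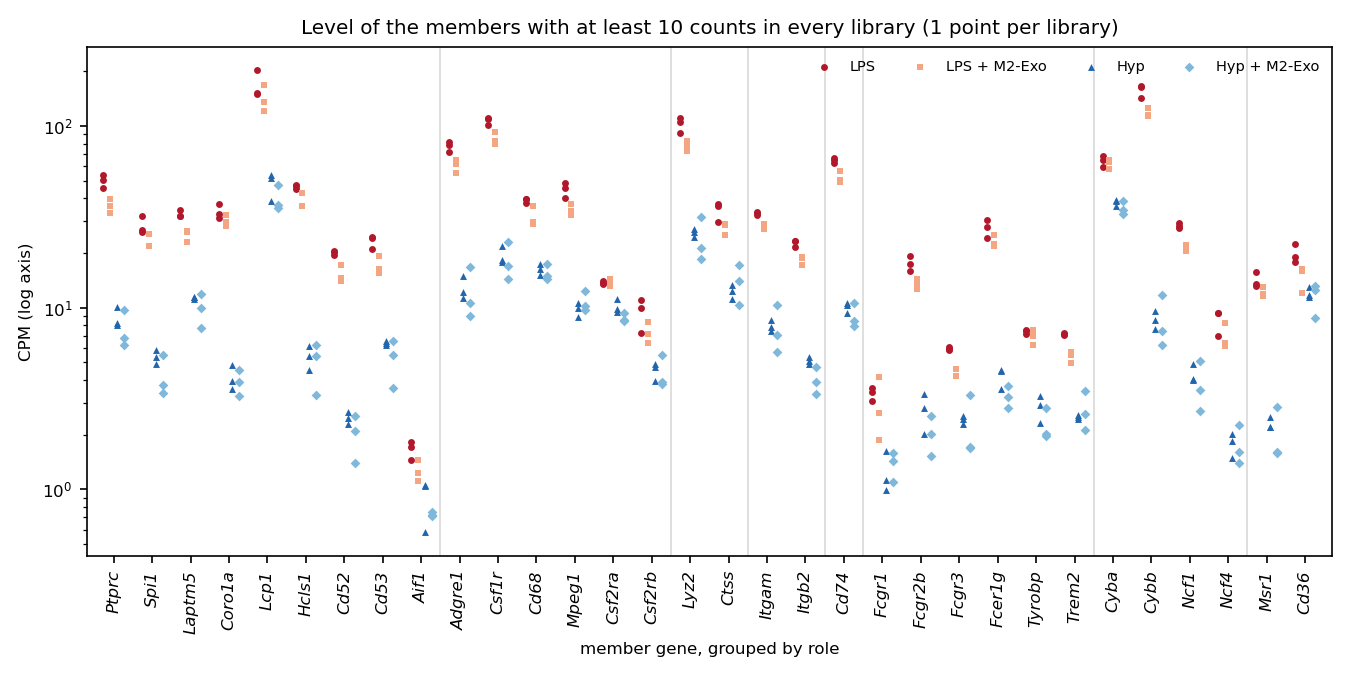
CPM (y axis, log scale) of the 32 members with at least 10 counts in every library (x axis, ordered by role), with 1 point per library and a colour and marker per group. The hyperoxia libraries lie below the LPS libraries for nearly every member, and the gap is widest for Cybb and narrow for Csf2ra, Cyba and Cd36.

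The second comparison, Hyp + M2-Exo against LPS + M2-Exo, shares no library with the first. Here 32 of 38 members tested were lower, 2 were higher (Itgax and C1qc), and H2-Ab1, Mrc1, Cd36 and C1qb were not called, against a background of 73.7% of 13660 genes called, 36.5% of genes tested being lower. The median over members was -1.70 and that over all genes 0.0083, and 25 members were called and at least 2 times lower against 13.6% of all genes tested. All 38 members had the same sign in both comparisons. Across the members, the differences of the 2 comparisons went together with Pearson's r = 0.986 and Spearman's rho = 0.98, given as a description, since the genes share libraries and depth.

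**Figure D3:**
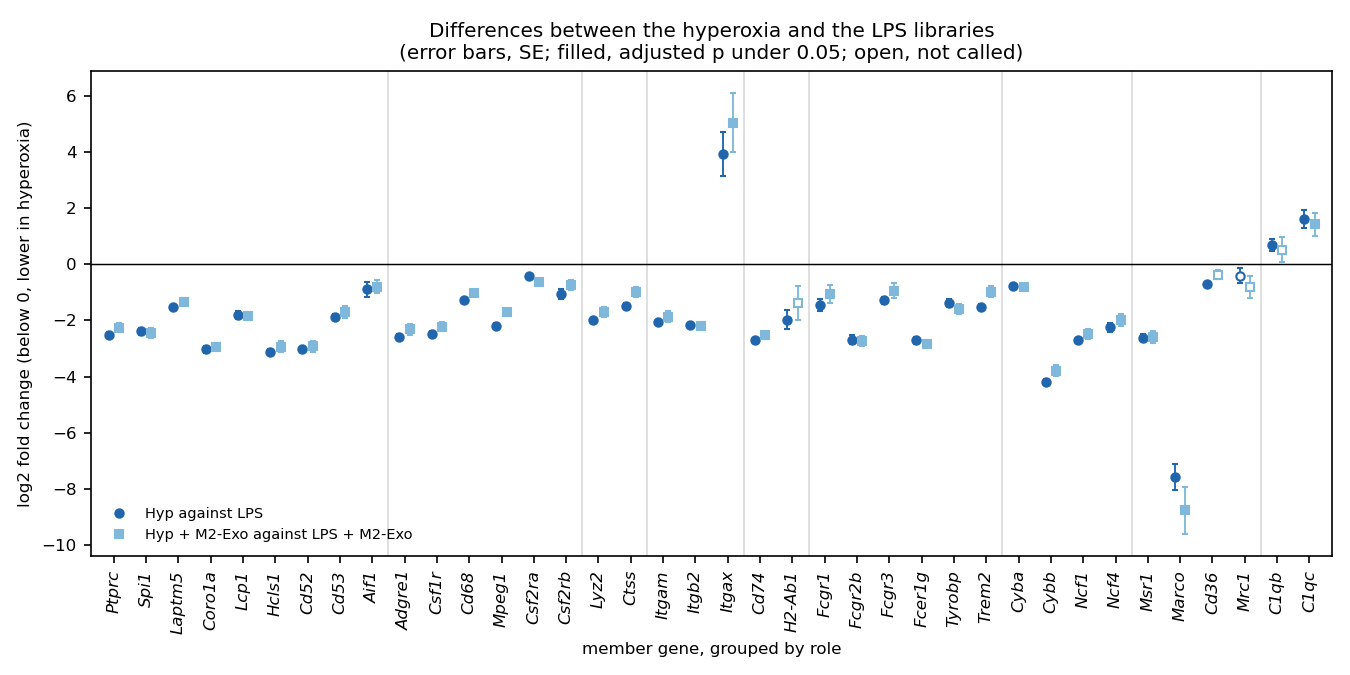
Log2 fold change of each member tested (y axis; values below 0 are lower in hyperoxia) without M2-Exo (dark circles) and with M2-Exo (light squares), with SE bars and open symbols where the adjusted p was not under 0.05. Most members lie between -1 and -4, Marco lies lowest, at fitted values over groups with 0 or 1 counts per library that give no bound on its size, and Itgax, C1qc and C1qb lie above 0 in both comparisons.

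The 9 general leukocyte genes were all lower in hyperoxia, against 37.8% of all genes tested without M2-Exo and 36.5% with it. Ptprc, which encodes the CD45 phosphatase of all nucleated blood cells (chr1:138062861-138175708, GRCm38), was read at 50.5, 53.6 and 45.7 CPM in LPS, 33.3, 36.4 and 39.6 CPM in LPS + M2-Exo, 10.1, 8.07 and 8.18 CPM in Hyp and 9.71, 6.79 and 6.23 CPM in Hyp + M2-Exo. Its difference was -2.51 (SE 0.10, adjusted p = 2.75e-07) without and -2.26 (SE 0.16, adjusted p = 5.15e-06) with M2-Exo, and no hyperoxia library reached the lowest LPS library. Spi1, encoding PU.1 itself, gave 26.6, 32.04 and 25.9 CPM in LPS, 25.4, 21.8 and 21.8 CPM in LPS + M2-Exo, 5.87, 5.35 and 4.89 CPM in Hyp and 5.46, 3.75 and 3.4 CPM in Hyp + M2-Exo. Its differences were -2.39 (SE 0.11, adjusted p = 5.14e-07) and -2.44 (SE 0.17, adjusted p = 4.78e-06), and the hyperoxia libraries did not overlap the LPS libraries.

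Coro1a, an actin-binding coronin of leukocytes, Hcls1, a cortactin relative of blood cells, and Cd52 differed most within this role, with estimates close to each other. Coro1a was at 37.3, 30.96 and 32.8 CPM in LPS, 28.1, 29.5 and 32.2 CPM in LPS + M2-Exo, 3.92, 3.55 and 4.85 CPM in Hyp and 4.54, 3.89 and 3.26 CPM in Hyp + M2-Exo. The difference was -3.03 (SE 0.12, adjusted p = 2.75e-07) without and -2.94 (SE 0.13, adjusted p = 4.35e-07) with M2-Exo. Coro1a overlaps Bola2 on the opposite strand by 26 bases, and the strand used in counting is not given in the sources used here. Hcls1 was at 47.3, 46.8 and 45.2 CPM in LPS, 36.2, 36.3 and 42.7 CPM in LPS + M2-Exo, 4.54, 5.39 and 6.13 CPM in Hyp and 6.25, 5.405 and 3.304 CPM in Hyp + M2-Exo, a difference of -3.11 (SE 0.10, adjusted p = 9.34e-08) and -2.94 (SE 0.20, adjusted p = 3.64e-06). Cd52, a short glycoprotein anchored on lymphocytes and macrophages, went from 20.4, 19.4 and 20.2 CPM in LPS and 14.5, 13.98 and 17.3 CPM in LPS + M2-Exo to 2.27, 2.46 and 2.65 CPM in Hyp and 2.54, 2.099 and 1.39 CPM in Hyp + M2-Exo. For Cd52 the differences were -3.02 (SE 0.09, adjusted p = 6.67e-08) and -2.91 (SE 0.20, adjusted p = 3.93e-06), and in all 3 genes no hyperoxia library reached an LPS library.

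Laptm5, a lysosomal membrane protein of blood cells, and Cd53, a leukocyte tetraspanin, differed less. Laptm5 was at 31.98, 34.4 and 31.97 CPM in LPS, 26.2, 23.05 and 26.4 CPM in LPS + M2-Exo, 11.2, 11.5 and 11.5 CPM in Hyp and 11.9, 10.01 and 7.71 CPM in Hyp + M2-Exo. Laptm5 differed by -1.53 (SE 0.06, adjusted p = 2.62e-07) and -1.35 (SE 0.15, adjusted p = 6.76e-05). The groups of the 2 injuries did not overlap for either gene. Cd53 was at 24.2, 24.6 and 21.1 CPM, 16.3, 15.4 and 19.2 CPM, 6.404, 6.53 and 6.25 CPM and 6.59, 5.49 and 3.59 CPM in the same order of groups. Cd53 differed by -1.86 (SE 0.08, adjusted p = 4.05e-07) and -1.69 (SE 0.20, adjusted p = 9.93e-05). Lcp1, plastin 2, which bundles actin and is also made by many cultured tumour lines, differed to a similar degree. It gave 151, 203 and 149 CPM in LPS, 121, 168 and 135 CPM in LPS + M2-Exo, 51.8, 38.4 and 53.8 CPM in Hyp and 47.02, 36.8 and 35.4 CPM in Hyp + M2-Exo. The difference was -1.81 (SE 0.16, adjusted p = 1.63e-05) without and -1.83 (SE 0.14, adjusted p = 9.24e-06) with M2-Exo. Aif1, the calcium-binding protein IBA1, was low, with 31, 34 and 27 counts in LPS, 18, 19 and 26 in LPS + M2-Exo, 14, 24 and 26 in Hyp and 18, 16 and 15 in Hyp + M2-Exo. Its differences of -0.90 (SE 0.26, adjusted p = 0.0146) and -0.80 (SE 0.23, adjusted p = 0.0138) were lost without LPS replicate 2 (-0.83, adjusted p = 0.0514) and without LPS + M2-Exo replicate 3 (-0.69, adjusted p = 0.061), respectively, and both with DESeq2, over a range of adjusted p from 0.0043 to 0.0514 and from 0.00904 to 0.127 in the alternatives.

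Markers of macrophage identity and their growth factor receptors were lower as well, all 6 in both comparisons, against 37.8% and 36.5% of all genes. Adgre1, the F4/80 antigen of mature mouse macrophages (chr17:57358686-57483529), was at 78.8, 81.4 and 71.7 CPM in LPS, 61.4, 54.8 and 65.3 CPM in LPS + M2-Exo, 11.3, 12.2 and 14.8 CPM in Hyp and 16.7, 10.6 and 9.003 CPM in Hyp + M2-Exo. The difference was -2.59 (SE 0.10, adjusted p = 2.49e-07) and -2.32 (SE 0.20, adjusted p = 1.62e-05), and the LPS libraries stood several-fold above every hyperoxia library. Csf1r was at 109.6, 111 and 101 CPM in LPS, 82.4, 79.5 and 92.5 CPM in LPS + M2-Exo, 17.7, 18.2 and 21.9 CPM in Hyp and 23.1, 16.9 and 14.4 CPM in Hyp + M2-Exo. Csf1r differed by -2.47 (SE 0.09, adjusted p = 1.36e-07) and -2.22 (SE 0.16, adjusted p = 5.22e-06). This gene overlaps Hmgxb3 on the opposite strand by 871 bases, and 13.5% of the 100-base stretches of its annotated transcripts also occur in those of Hmgxb3, so part of its reads may belong to that gene.

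Cd68, a late endosomal glycoprotein, and Mpeg1, the pore-forming perforin 2 of phagocytes, gave 37.7, 39.6 and 39.8 and 48.5, 45.8 and 39.95 CPM in LPS. In LPS + M2-Exo they gave 29.7, 28.7 and 36.2 and 34.03, 32.5 and 37.03 CPM, in Hyp 17.4, 16.4 and 15.1 and 8.88, 10.6 and 9.98 CPM, and in Hyp + M2-Exo 14.8, 17.3 and 14.4 and 12.4, 10.1 and 9.67 CPM. The differences were -1.26 (SE 0.07, adjusted p = 1.08e-06) and -1.02 (SE 0.11, adjusted p = 6.95e-05) for Cd68, and -2.19 (SE 0.10, adjusted p = 3.69e-07) and -1.68 (SE 0.11, adjusted p = 2.91e-06) for Mpeg1. The receptor for granulocyte-macrophage colony-stimulating factor differed least in this role. Its ligand-binding chain Csf2ra was at 14.01, 13.5 and 13.7 CPM in LPS, 13.1, 13.5 and 14.4 CPM in LPS + M2-Exo, 9.87, 9.47 and 11.1 CPM in Hyp and 9.34, 8.49 and 8.52 CPM in Hyp + M2-Exo. Csf2ra differed by only -0.43 (SE 0.08, adjusted p = 0.00168) and -0.64 (SE 0.09, adjusted p = 3.19e-04). Even so, no hyperoxia library reached an LPS library. Its signalling chain Csf2rb was at 9.999, 11.02 and 7.22 CPM, 7.13, 6.34 and 8.32 CPM, 3.97, 4.91 and 4.73 CPM and 5.502, 3.89 and 3.78 CPM in the same order. Csf2rb differed by -1.05 (SE 0.17, adjusted p = 6.51e-04) and -0.72 (SE 0.18, adjusted p = 0.00682), and 4.63% of its 100-base stretches occur in the related Csf2rb2.

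The ligand of the latter receptor went the other way. Csf2, which encodes granulocyte-macrophage colony-stimulating factor and is no member, was at 0.604, 0.376 and 0.647 CPM in LPS and 10.7, 10.04 and 10.3 CPM in Hyp, a difference of 4.24 (SE 0.16, adjusted p = 2.03e-07), and with M2-Exo of 3.78 (SE 0.36, adjusted p = 2.75e-05). Of 10 macrophage growth factors and chemoattractants, 9 were tested without M2-Exo, 7 were lower, 1 (Csf2) was higher and 1 was not called, with 77.8% lower against 37.8% of all genes. Cx3cl1, the membrane-bound fractalkine, differed by -3.45 (SE 0.08, adjusted p = 2.74e-08). Cxcl12, a chemokine of stromal cells, held 28, 23 and 25 counts in LPS and 0, 2 and 3 in Hyp (adjusted p = 8.36e-05). The count was again 7 lower and 1 higher of 9 with M2-Exo, against 36.5% of all genes lower, where Cx3cl1 differed by -3.36 (SE 0.10, adjusted p = 1.05e-07).

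Lyz2, the lysozyme that macrophages and AT II cells both make, and Ctss, the lysosomal protease cathepsin S, were both lower. Lyz2 was at 111, 105 and 91.2 CPM in LPS, 82.2, 72.5 and 78.97 CPM in LPS + M2-Exo, 24.5, 26.05 and 27.02 CPM in Hyp and 31.5, 21.4 and 18.5 CPM in Hyp + M2-Exo. The difference was -1.99 (SE 0.08, adjusted p = 2.47e-07) and -1.71 (SE 0.17, adjusted p = 4.14e-05). Ctss was at 37.1, 36.4 and 29.4 CPM, 28.8, 24.99 and 28.4 CPM, 11.2, 13.2 and 12.4 CPM and 17.1, 13.98 and 10.3 CPM in the same order. Ctss differed by -1.48 (SE 0.11, adjusted p = 5.20e-06) and -0.99 (SE 0.17, adjusted p = 7.51e-04). Lyz1, the near copy of Lyz2 that Paneth cells use, held between 0 and 2 counts per library, and 1.97% of the 100-base stretches of Lyz2 occur in it.

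Integrins split by chain. Itgam, the CD11b chain of complement receptor 3 (chr7:128062640-128118491), was at 32.3, 33.5 and 33.1 CPM in LPS, 26.96, 28.6 and 28.8 CPM in LPS + M2-Exo, 8.59, 7.41 and 7.78 CPM in Hyp and 10.3, 7.102 and 5.699 CPM in Hyp + M2-Exo. Itgb2, its CD18 partner, was in the same order at 23.4, 23.3 and 21.7 CPM, 19.1, 18.7 and 17.1 CPM, 5.33, 4.91 and 5.05 CPM and 4.71, 3.35 and 3.88 CPM. Itgam differed by -2.05 (SE 0.07, adjusted p = 1.36e-07) and -1.86 (SE 0.19, adjusted p = 3.72e-05). Itgb2 differed by -2.16 (SE 0.07, adjusted p = 1.26e-07) and -2.20 (SE 0.13, adjusted p = 2.29e-06). Both chains thus fell to a similar degree. Itgax, the CD11c chain (chr7:128129547-128150657), was near 0 in the LPS libraries and was higher in hyperoxia, with 0, 3 and 0 counts in LPS, 1, 0 and 0 in LPS + M2-Exo, 13, 22 and 30 in Hyp and 13, 12 and 33 in Hyp + M2-Exo. Summed over libraries, that is a ratio of 16.7 without M2-Exo (95% exact interval 5.46 to 82.9, counting error only) and of 42.7 with it (7.36 to 1714), and the adjusted p was 0.00206 and 0.00245. All 3 counts in LPS came from replicate 2 and the 1 in LPS + M2-Exo from replicate 1. Without these libraries the lower groups stood at 0 and the fitted log2 fold change, which is then no bound, went from 3.92 to 7.3 and from 5.04 to 7.14. With each library left out in turn, the highest adjusted p was 0.00849 without and 0.0116 with M2-Exo. The second entry named Itgam (chr7:128062683-128128160) starts within the first Itgam and ends between it and Itgax. It held 0 counts in all 6 LPS libraries. The Hyp libraries held 0, 3 and 5 and the Hyp + M2-Exo libraries 22, 5 and 28, at least 13.5-fold more in Hyp + M2-Exo than in LPS + M2-Exo when 3 counts over the group are taken as the floor. This entry overlaps the first one by 55809 bases on the same strand, so how reads were split between them is uncertain. The second entry was too low for the filter of the main tests. In Hyp + M2-Exo against LPS + M2-Exo, 5 alternatives tested it, with adjusted p from 0.00117 to 0.0187, and in Hyp against LPS 1 did, with an adjusted p of 0.109.

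Among the MHC class II genes, only the invariant chain was abundant. Cd74, which guides class II molecules to the lysosome, was at 66.97, 62.7 and 64.97 CPM in LPS, 56.2, 50.6 and 49.03 CPM in LPS + M2-Exo, 10.6, 10.4 and 9.34 CPM in Hyp and 10.6, 8.44 and 7.901 CPM in Hyp + M2-Exo. Cd74 differed by -2.68 (SE 0.07, adjusted p = 3.37e-08) and -2.53 (SE 0.12, adjusted p = 5.47e-07). The beta chain H2-Ab1 was low, with 16, 11 and 16 counts in LPS, 11, 23 and 8 in LPS + M2-Exo, 6, 4 and 4 in Hyp and 14, 4 and 4 in Hyp + M2-Exo. It differed by -1.97 (SE 0.34, adjusted p = 9.98e-04) without M2-Exo and was not called with it, at -1.38 (SE 0.60, adjusted p = 0.0682). That difference was called without Hyp + M2-Exo replicate 1 (-2.17, adjusted p = 0.0227) and without LPS + M2-Exo replicate 3 (-1.72, adjusted p = 0.0365). A fit of all 12 libraries also called it (-1.38, adjusted p = 0.0283), in alternatives whose adjusted p reached 0.281. The chains H2-Aa and H2-Eb1 held between 0 and 2 counts per library. Of 11 class II partners and regulators, 8 were tested in Hyp against LPS, 3 were lower, or 37.5% against 37.8% of all genes, and 1 (Nfyc) was higher. H2-DMb1, which helps load peptides, differed by -1.48 (SE 0.23, adjusted p = 5.45e-04) and Rfx5, a factor that binds class II promoters, by -1.19 (SE 0.06, adjusted p = 6.15e-07). Ciita, the class II master regulator, was under 1 CPM in all 12 libraries.

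Fc receptors and their adaptors were lower in all 6 cases in both comparisons, against 37.8% and 36.5% of all genes. Fcer1g, the signalling gamma chain shared by activating receptors, was at 30.4, 27.8 and 24.2 CPM in LPS, 22.5, 21.8 and 25.2 CPM in LPS + M2-Exo, 4.54, 3.55 and 4.49 CPM in Hyp and 3.71, 2.81 and 3.21 CPM in Hyp + M2-Exo. It differed by -2.71 (SE 0.12, adjusted p = 4.49e-07) and -2.83 (SE 0.12, adjusted p = 4.70e-07). The inhibitory receptor Fcgr2b was at 15.99, 19.3 and 17.3 CPM, 14.4, 13.4 and 12.7 CPM, 2.02, 2.81 and 3.33 CPM and 2.54, 1.52 and 2.01 CPM in the same order. Fcgr2b differed by -2.68 (SE 0.16, adjusted p = 2.13e-06) and -2.73 (SE 0.17, adjusted p = 2.80e-06). The estimates for the inhibitory receptor and for the shared activating chain were close to each other, and larger than those of the activating receptors that follow. Fcgr3, a low-affinity activating receptor, was at 5.88, 5.81 and 6.04 CPM, 4.21, 4.596 and 4.19 CPM, 2.44, 2.54 and 2.28 CPM and 3.29, 1.697 and 1.68 CPM. Fcgr3 differed by -1.29 (SE 0.11, adjusted p = 1.76e-05) and -0.95 (SE 0.27, adjusted p = 0.0116). Fcgr1, the high-affinity receptor, was at 3.08, 3.602 and 3.45 CPM, 4.15, 1.88 and 2.62 CPM, 0.992, 1.62 and 1.12 CPM and 1.58, 1.43 and 1.101 CPM. Fcgr1 differed by -1.44 (SE 0.21, adjusted p = 3.40e-04) and -1.06 (SE 0.31, adjusted p = 0.0141), the latter lost without LPS + M2-Exo replicate 1 (-0.72, adjusted p = 0.0503, the highest of its alternatives, of which the lowest was 0.0046).

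Tyrobp, the DAP12 adaptor, and Trem2, a lipid-sensing receptor that signals through it, were both lower in hyperoxia. Tyrobp was at 7.47, 7.15 and 7.49 CPM in LPS, 6.198, 7.51 and 6.98 CPM in LPS + M2-Exo, 2.31, 3.25 and 2.93 CPM in Hyp and 2.79, 1.97 and 2.01 CPM in Hyp + M2-Exo. Trem2 was in the same order at 7.14, 7.095 and 7.22 CPM, 5.702, 5.503 and 4.97 CPM, 2.56, 2.5 and 2.44 CPM and 3.46, 2.59 and 2.11 CPM. The differences were -1.38 (SE 0.14, adjusted p = 3.70e-05) and -1.60 (SE 0.17, adjusted p = 5.98e-05) for Tyrobp. They were -1.51 (SE 0.10, adjusted p = 4.06e-06) and -0.98 (SE 0.19, adjusted p = 0.0019) for Trem2.

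The subunits of the phagocyte NADPH oxidase differed to unequal degrees. Its catalytic subunit Cybb, gp91phox (chrX:9435252-9487771), was at 164, 166 and 142 CPM in LPS, 114, 113 and 126 CPM in LPS + M2-Exo, 9.58, 8.595 and 7.58 CPM in Hyp and 11.8, 7.41 and 6.23 CPM in Hyp + M2-Exo. This is a difference of -4.19 (SE 0.10, adjusted p = 2.77e-08) and -3.79 (SE 0.20, adjusted p = 1.13e-06), second only to Marco among the members that fell. Its membrane partner Cyba, p22phox, which also serves the oxidases of other tissues (chr8:122424772-122432940), was at 64.7, 68.1 and 59.3 CPM in LPS, 64.9, 58.1 and 63.6 CPM in LPS + M2-Exo, 38.5, 36.1 and 38.9 CPM in Hyp and 38.6, 32.7 and 34.6 CPM in Hyp + M2-Exo, and differed by only -0.76 (SE 0.06, adjusted p = 1.18e-05) and -0.82 (SE 0.08, adjusted p = 2.72e-05). The cytosolic subunit Ncf1, p47phox, was at 28.3, 29.2 and 27.4 CPM, 20.6, 20.6 and 22.2 CPM, 4.05, 3.99 and 4.89 CPM and 5.09, 3.53 and 2.68 CPM in the same order. For Ncf4, p40phox, the levels were 9.29, 9.35 and 6.96 CPM, 6.14, 6.34 and 8.21 CPM, 2.02, 1.49 and 1.84 CPM and 2.25, 1.61 and 1.39 CPM. Ncf1 differed by -2.71 (SE 0.09, adjusted p = 1.13e-07) and -2.48 (SE 0.19, adjusted p = 8.84e-06), and Ncf4 by -2.25 (SE 0.17, adjusted p = 7.71e-06) and -1.97 (SE 0.21, adjusted p = 5.59e-05). Ncf1 overlaps Gtf2ird2 on the opposite strand by 4303 bases.

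Partners of the oxidase that are no members moved in both directions. Of 11 such genes 5 were tested in Hyp against LPS, with 4 lower and 1 higher, against 37.8% lower and 38% higher of all genes. The latter was Duox1, an oxidase of epithelia that makes hydrogen peroxide, which differed by 1.11 (SE 0.07, adjusted p = 3.28e-06). Rac2, the blood cell GTPase of the complex, differed by -2.73 (SE 0.08, adjusted p = 6.74e-08), and Noxo1, an organiser of epithelial oxidases, by -2.29 (SE 0.15, adjusted p = 2.81e-06). With M2-Exo, Rac2 differed by -2.88 (SE 0.19, adjusted p = 3.44e-06) and Noxo1 by -2.39 (SE 0.16, adjusted p = 3.54e-06).

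Scavenger receptors held the largest fall of all members. Marco, which binds unopsonised bacteria and particles (chr1:120474538-120505024), held 57, 72 and 80 counts in LPS and 55, 50 and 30 in LPS + M2-Exo, but 0, 0 and 1 in Hyp and 0, 0 and 0 in Hyp + M2-Exo. Summed over libraries, LPS held 272 times the level of Hyp (95% exact interval 48.2 to 10780, counting error only), and LPS + M2-Exo at least 61.2-fold more than Hyp + M2-Exo with the floor of 3 counts over the group. The 1 count in Hyp came from replicate 3. Without that library Hyp stood at 0 and the fitted log2 fold change, which is then no bound, went from -7.58 to -9.27. The adjusted p for Marco was 2.18e-06 without and 1.36e-04 with M2-Exo. Msr1, scavenger receptor A, was at 15.7, 13.4 and 13.1 CPM in LPS, 11.8, 11.6 and 12.96 CPM in LPS + M2-Exo, 2.19, 2.5 and 2.204 CPM in Hyp and 2.83, 1.61 and 1.58 CPM in Hyp + M2-Exo. Msr1 differed by -2.61 (SE 0.12, adjusted p = 4.03e-07) and -2.58 (SE 0.21, adjusted p = 1.13e-05). Cd36, a fatty acid and lipoprotein receptor of many cell types, was at 22.5, 18.97 and 17.8 CPM, 12.02, 16.3 and 15.9 CPM, 12.9, 11.7 and 11.4 CPM and 13.1, 12.4 and 8.76 CPM, with a difference of -0.72 (SE 0.10, adjusted p = 2.74e-04) that was not called with M2-Exo, at -0.37 (SE 0.18, adjusted p = 0.0917), unless LPS + M2-Exo replicate 1 was left out (-0.50, adjusted p = 0.0349). Cd163, the haemoglobin receptor, was at 0 in all 6 LPS libraries and at 0 to 2 counts in the hyperoxia libraries.

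Complement C1q, the recognition unit of the classical pathway that macrophages make, was at the edge of detection and did not share the fall. C1qb held 14, 14 and 14 counts in LPS, 21, 11 and 8 in LPS + M2-Exo, 31, 26 and 31 in Hyp and 41, 19 and 19 in Hyp + M2-Exo, and C1qc held 7, 7 and 7, 9, 3 and 4, 24, 36 and 24 and 24, 16 and 19 counts in the same order. C1qc was higher in hyperoxia by 1.61 (SE 0.32, adjusted p = 0.00205) and 1.42 (SE 0.41, adjusted p = 0.0135), the latter lost without LPS + M2-Exo replicate 2 (1.17, adjusted p = 0.0505) or replicate 3 (1.19, adjusted p = 0.0574) and with DESeq2, over a range of 0.00449 to 0.0574 in its alternatives. C1qb was higher without M2-Exo by 0.68 (SE 0.20, adjusted p = 0.0147), which neither DESeq2 (adjusted p = 0.17) nor a fit of all 12 libraries (adjusted p = 0.102) called, while its lowest adjusted p in an alternative was 0.00816, and was not called with M2-Exo, at 0.52 (SE 0.44, adjusted p = 0.317). C1qa held 4, 2 and 7 counts in LPS, 5, 5 and 5 in LPS + M2-Exo, 12, 16 and 10 in Hyp and 25, 5 and 4 in Hyp + M2-Exo, and was too low for the filter of the tests between the injuries. In the 5 alternatives that tested it in Hyp against LPS, its adjusted p ran from 0.0259 (1.66, without LPS replicate 3) to 0.161, and only the former was a call. With M2-Exo it was not called in the 2 alternatives that tested it.

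A further 41 macrophage genes, listed with earlier results of these data known, were set beside the members. In Hyp against LPS, 28 were tested, 23 were lower, 2 were higher and 3 were not called, with a median of -1.96. The lower genes were 82.1% of those tested, against 37.8% of all genes. Cx3cr1, the fractalkine receptor, Ms4a6c, a tetraspanning protein of monocytes, and Lcp2, the SLP76 adaptor, had the largest falls, of -4.59 (SE 0.18, adjusted p = 2.03e-07), -4.10 (SE 0.25, adjusted p = 1.94e-06) and -3.43 (SE 0.12, adjusted p = 1.28e-07). The 2 that were higher were Mertk, a receptor for dying cells (1.90 (SE 0.30, adjusted p = 5.67e-04)), and Pparg, a lipid-sensing factor (0.65 (SE 0.06, adjusted p = 1.49e-05)), named after their values were seen. With M2-Exo, 22 of 27 tested were lower and 2 higher, or 81.5% lower against 36.5% of all genes, with a median of -1.88. Fibroblast markers also moved between the injuries, from 769 to 835 CPM in the LPS libraries to 327 to 356 CPM in hyperoxia, nearly all of it Dcn, the matrix proteoglycan decorin. Of 4 fibroblast markers tested in Hyp against LPS, 3 were lower, or 75% against 37.8% of all genes, and 1 was not called. The 4 endothelial markers summed to between 22.6 and 26.9 CPM in the LPS libraries and between 5.73 and 8.04 CPM in hyperoxia, where Tek was lower and Kdr and Pecam1 were higher. The part of either list in the result was not tested.

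The M2-Exo comparison in LPS asked whether exosomes of M2 macrophages change these transcripts. No member was called in 36 tested, against a background of 0.187% of 13353 genes called. Of the 36, 33 had a lower estimate with M2-Exo, against 48.9% of all genes tested, and the median was -0.32 against 0.0027 for all genes. At an unadjusted p under 0.05, 22 members were lower and 0 higher, against 6.1% and 4.99% of all genes. For 23 members the 3 libraries with M2-Exo all lay below the 3 without, against 9.16% of all genes, and the summed level was 1.24 times lower. The members moved together from library to library, as described below, so these counts of members do not stand for separate results. The smallest adjusted p, 0.078, belonged to Ncf1, with a difference of -0.42 (SE 0.06). Cybb differed by -0.42 (SE 0.07, adjusted p = 0.11), Ptprc by -0.45 (SE 0.08, adjusted p = 0.146), Lyz2 by -0.40 (SE 0.08, adjusted p = 0.162) and Csf1r by -0.34 (SE 0.07, adjusted p = 0.159), while Cyba (-0.04 (SE 0.07, adjusted p = 0.874)) and Csf2ra (-0.00 (SE 0.08, adjusted p = 0.997)) were close to 0. DESeq2 called 10 members in the same libraries, all lower, against 1.08% of the 11536 genes for which it gave an adjusted p: Cybb, Mpeg1, Csf1r, Laptm5, Adgre1, Ptprc, Ncf1, Cd53, Cd74 and Lyz2. Without LPS replicate 3, edgeR called 1 member, against 0.163% of all genes, and this was Cybb (-0.49, adjusted p = 0.0431), whose adjusted p ran from 1.01e-05 with DESeq2 to 0.342 over the alternatives.

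**Figure D4:**
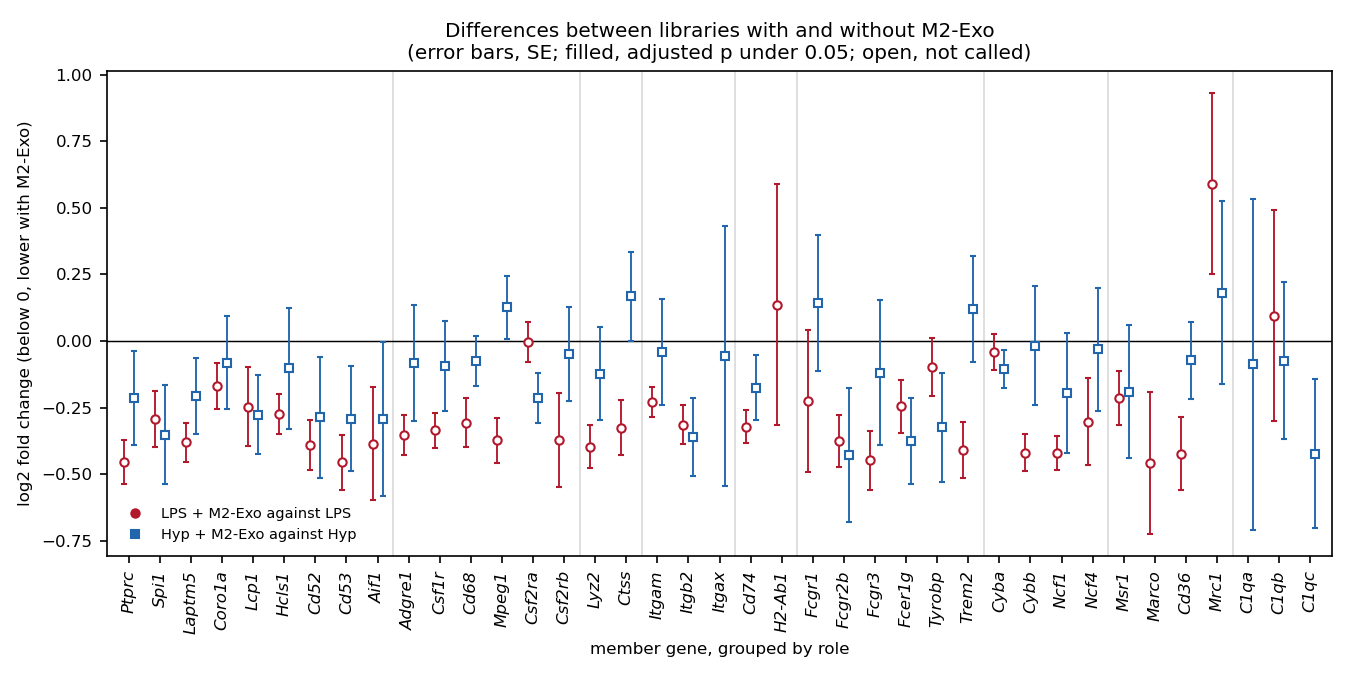
Log2 fold change of each member tested (y axis; values below 0 are lower with M2-Exo) in LPS (red circles) and in hyperoxia (blue squares), with SE bars and open symbols throughout, since no member had an adjusted p under 0.05. In LPS most members lie between -0.2 and -0.5, and in hyperoxia they spread around a median of -0.10 with wider errors.

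In hyperoxia the estimates with M2-Exo were smaller and moved with single libraries. No member was called in 37 tested, against a background of 0.101% of 13815 genes called, and DESeq2 called 0 as well, against 0.297% of all genes. The 2 members with an unadjusted p under 0.05 were Fcer1g (-0.38 (SE 0.16, adjusted p = 0.587)) and Itgb2 (-0.36 (SE 0.15, adjusted p = 0.575)), or 5.41% lower against 4.65% of all genes. The median was -0.10, with 32 of 37 members lower against 50.7% of all genes. Without Hyp + M2-Exo replicate 1 the median was -0.33 and 19 members had an unadjusted p under 0.05, all lower, or 51.4% of those tested against 7.42% of all genes. Without Hyp + M2-Exo replicate 3 the median was -0.01 and 19 of 37 members were lower, against 50.6% of all genes. No member was called in either case.

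Within the Hyp + M2-Exo group the members moved together from library to library. Of the 32 members with at least 10 counts in every library, 31 were highest in replicate 1 and 25 were lowest in replicate 3, against 38.6% and 37.6% of 12285 genes with the same counts. The summed level was 349 CPM in replicate 1, 271 CPM in replicate 2 and 245 CPM in replicate 3, a ratio of 1.43 between the highest and the lowest, against 1.08 in Hyp, 1.06 in LPS + M2-Exo and 1.14 in LPS. The median coefficient of variation per member was 24.6% in this group and 7.72% to 8.91% in the other 3. Of the other macrophage genes with such counts, 17 of 23 were highest in replicate 1 and 21 were lowest in replicate 3. Cyba varied little, at 38.6, 32.7 and 34.6 CPM, and Cybb widely, at 11.8, 7.41 and 6.23 CPM. The epithelial markers summed to 1129, 995 and 1049 CPM in these libraries, and their part in the pattern was not tested. A smaller joint shift was seen in the LPS groups. In LPS, 21 of the 32 members were lowest in replicate 3, against 33.4% of all genes with such counts. In LPS + M2-Exo, 19 were highest in replicate 3, against 31.8%.

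**Figure D5:**
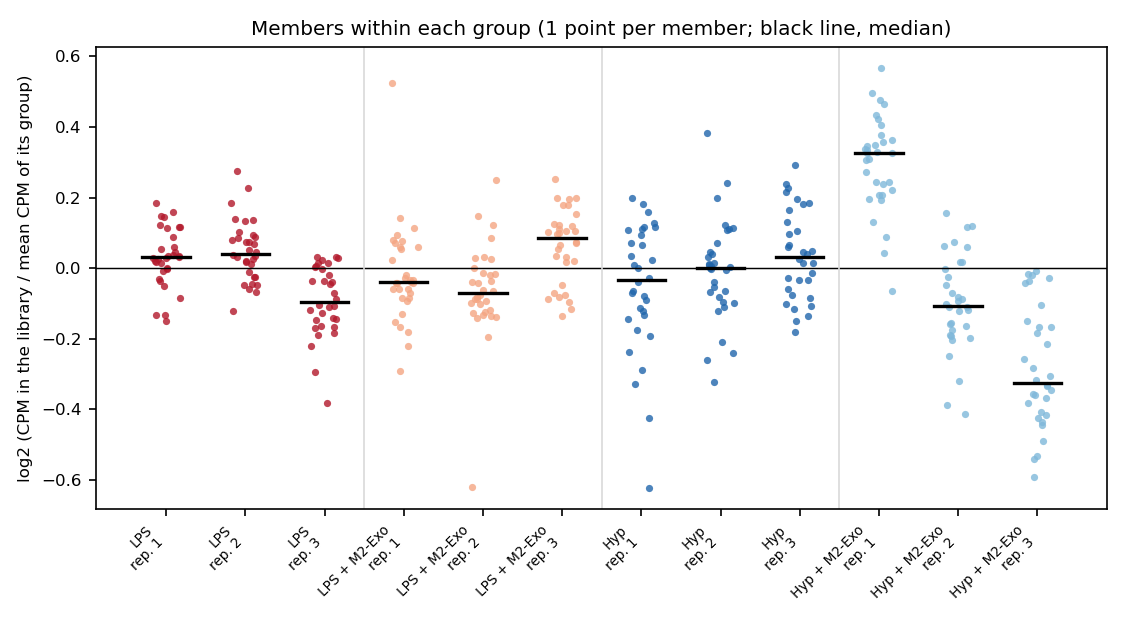
Log2 ratio of each member's CPM to the mean of its own group (y axis) in the 12 libraries (x axis), for the 32 members with at least 10 counts in every library, with 1 point per member and a black line at the median. In Hyp + M2-Exo the medians are 0.33, -0.11 and -0.33, while in the other 3 groups they stay between -0.10 and 0.08.

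The marks Retnla, Chil3 and Mrc1 of the M2 state were looked at one by one. Retnla and Chil3 were at 0 counts in all 12 libraries. A count of 0 allows up to 3 counts per library, or at most 0.187 CPM at the depth of these libraries. Mrc1, the mannose receptor CD206, was above this limit throughout, with 15, 18 and 12 counts in LPS, 25, 11 and 25 in LPS + M2-Exo, 14, 17 and 13 in Hyp and 21, 9 and 17 in Hyp + M2-Exo. It differed by 0.59 (SE 0.34, adjusted p = 0.578) with M2-Exo in LPS and by 0.18 (SE 0.34, adjusted p = 0.885) in hyperoxia, and the groups overlapped in both. Between the injuries it differed by -0.40 (SE 0.28, adjusted p = 0.212) without and by -0.81 (SE 0.39, adjusted p = 0.0918) with M2-Exo, and the latter was called without LPS + M2-Exo replicate 2 (-1.08, adjusted p = 0.033) and in 1 alternative that left out no library, with up to 0.264 in the others. Of 12 interleukin 4 response genes, 7 were tested between the injuries and 6 were lower in Hyp, or 85.7% against 37.8% of all genes. Ccl17, a chemokine of M2 cells, held 36, 32 and 24 counts in LPS and 0, 3 and 0 in Hyp (adjusted p = 1.15e-04). The receptor chains Il13ra1 (-2.07 (SE 0.41, adjusted p = 0.00191)) and Il4ra (-1.64 (SE 0.13, adjusted p = 1.01e-05)) were lower as well. None of the genes listed outside the members was called with M2-Exo in either injury.

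Whether M2-Exo changed the members differently in the 2 injuries was tested by an interaction over all 12 libraries. None of 39 members was called, against a background of 0.0352% of 14187 genes called, and DESeq2 called 0 as well. There were 3 members with an unadjusted p under 0.05, all positive, which is 7.69% against 4.84% of all genes: Mpeg1 (0.51 (SE 0.15, adjusted p = 0.326)), Trem2 (0.54 (SE 0.22, adjusted p = 0.456)) and Ctss (0.50 (SE 0.21, adjusted p = 0.488)). A positive value means that the log2 fold change with M2-Exo was higher in hyperoxia than in LPS, where all 3 were at lower levels with M2-Exo. The median over members was 0.18, -0.03 without Hyp + M2-Exo replicate 1 and 0.33 without its replicate 3.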

How the data were processed

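Poly(A) RNA from 12 MLE-12 libraries was sequenced by the authors. Their processing notes name HISAT2 2.0.4, StringTie 1.3.0, edgeR and GRCm38, and the program, annotation and strand used for counting are not given in the sources used here. The authors deposited 1 table with raw gene counts and FPKM for each library, in which FPKM follow from the counts and a gene length (largest relative difference 9.38e-06 over 9889 genes), so multi-mapping and overlapping reads limit both. Groups and replicate numbers came from the sample labels. Nothing there says that libraries of a group came from separate cultures, so p-values measure the spread between these libraries, which may be technical.

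From the counts, edgeR 4.0.16 in R 4.3.3 was used for 4 comparisons of 6 libraries each and 1 interaction over 12, with its own filter on low counts, TMM scaling and quasi-likelihood F-tests (two-sided), and Benjamini-Hochberg adjustment over all genes tested, with a threshold of 0.05. The fits were tested on simulated counts. CPM in the text are on 1 TMM scale over 12 libraries. Intervals of ratios are exact binomial at 95%, and they and the floor of 3 counts cover counting error only. The 46 members, the lists and the roles were chosen with earlier results of these data known. Members and listed genes are named except for a few items that are not reported here. Those with at least 10 counts in at least 1 library are given in every library, and fold changes for members called in at least 1 comparison and for Mrc1. From other lists, up to 3 called genes with the largest change are named per list and comparison, and Krt19, Sftpb, Nfyc, Duox1 and Cish were named after their values were seen. Alternatives were other scalings and filters, DESeq2 1.42.0, limma 3.58.1 on log2(FPKM + 1), a replicate block, all 12 libraries in 1 fit, the study's thresholds and each library left out. Comparisons that share libraries were not correlated. The table holds 0 columns of other samples.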

Additional observations from a re-analysis of the deposited data

How the results depend on the processing

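The direction of every member called between the injuries was kept under all alternatives that could be run for it. Sizes were smaller with limma on log2(FPKM + 1), a scale that understates the change of low genes, with member medians of -1.47 without and -1.36 with M2-Exo. Examples in Hyp against LPS were -1.07 for Ptprc, -1.25 for Fcgr2b, -1.61 for Ncf1 and -1.19 for Ncf4. Over all alternatives, the smallest sizes in Hyp against LPS also included -1.47 for Msr1, -2.01 for Coro1a and -0.595 for Fcgr3. With M2-Exo they included -1.1 for Fcgr2b and -1.38 for Msr1. The study's thresholds (unadjusted p under 0.05, log2 fold change of 2 or more in size) were applied to the fits made here. They called 1060 genes and 19 members in Hyp against LPS and 983 genes and 16 members in Hyp + M2-Exo against LPS + M2-Exo. They called 3 genes in LPS + M2-Exo against LPS, 6 genes in Hyp + M2-Exo against Hyp and 36 genes in the interaction. For both M2-Exo comparisons the paper reports more genes at these thresholds, from its own fit. DESeq2 called 125 genes and 10 members in LPS + M2-Exo against LPS, 37 genes in Hyp + M2-Exo against Hyp and 67 in the interaction. One fit of all 12 libraries called 12 genes in LPS + M2-Exo against LPS and 2 in Hyp + M2-Exo against Hyp, and without the filter on low counts the interaction called 13. With the replicate block, 6, 8 and 3 genes were called in these 3 tests, and 0 members, and Mrc1 was called in Hyp + M2-Exo against LPS + M2-Exo (-0.80, adjusted p = 0.0376). Same-numbered libraries correlated at -0.014 to 0.052 in their deviations from group means, over all genes tested. Single genes could still follow the replicate number. Cish, of the interleukin 4 response genes, was at 125, 62.9 and 120 CPM in LPS and 129, 60.7 and 121 CPM in LPS + M2-Exo. In Hyp it was at 83.5, 43.3 and 36.9 CPM and in Hyp + M2-Exo at 75.1, 30.6 and 33.04 CPM. Whether libraries of the same number were handled together was not tested. When each library was left out in turn, 21 to 39 genes (39 without LPS replicate 1) and 0 to 1 members were called in LPS + M2-Exo against LPS, 12 to 21 genes in Hyp + M2-Exo against Hyp, and 4 to 34 genes in the interaction (34 without Hyp + M2-Exo replicate 1). Mrc1, at 0.18 in Hyp + M2-Exo against Hyp, lay between -0.0253 without Hyp + M2-Exo replicate 1 and 0.456 without replicate 2. Scaling by library size alone moved the median of all genes to 0.099 in both comparisons between the injuries, and that of the members to -1.89 and -1.61. That setting leaves out the TMM factors, which over 12 libraries ran from 0.9641 to 0.9747 in the LPS groups and from 1.0246 to 1.0363 in the hyperoxia groups. Why these factors differ between the injuries, and what caused the other shifts above, was not tested. Depth limits Itgax, the C1q genes, H2-Ab1, Mrc1 and Aif1, which were read from few counts.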
